A study of Mus musculus with 23 samples.

Results

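The 10 genes described here carry out or control the making of fatty acids from carbohydrate carbon: Fasn, Acly, Acaca, Acacb, Elovl6, Scd1, Srebf1, Mlxipl, Me1 and Thrsp. They were chosen by gene symbol, and all 10 were found in both count tables, among 12831 genes in quadriceps muscle and 16962 genes in epididymal fat; none was removed by the filter on low counts. Male C57BL/6 mice were operated on at 8 weeks of age in 3 groups. No tumor mice had sham surgery, KPC mice received a clone of a mouse pancreatic cancer line in the pancreas that had gone through transfection without guide RNA, and KPC IL6KO mice received a clone of the same line in which Il6 had been disrupted with CRISPR/Cas9. Each tumor type is thus 1 clone, and the hosts themselves kept an intact Il6 gene. RNA-seq was available for 11 quadriceps (3 no tumor, 4 KPC, 4 KPC IL6KO) and 12 epididymal fat pads (4 per group), each from 1 mouse.

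Fatty acid synthesis starts with citrate that leaves the mitochondrion. Acly cleaves it to acetyl-CoA, the acetyl-CoA carboxylases Acaca and Acacb turn acetyl-CoA into malonyl-CoA, and Fasn joins these units into palmitate with NADPH that Me1 helps to supply. Elovl6 then lengthens palmitate and Scd1 places the double bond that gives oleate. Srebf1 encodes SREBP-1, the factor through which insulin raises these genes, Mlxipl encodes ChREBP, the factor that responds to glucose, and Thrsp encodes Spot 14, a small protein that follows lipogenesis. Fat and liver are the main sites of the pathway. In muscle fibers malonyl-CoA made by Acacb acts chiefly as a brake on the entry of fatty acids into mitochondria.

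In mm10, 4 members lie on chromosome 11: Fasn at 120805846 to 120824547 and Acly at 100476353 to 100528000 on the minus strand, Acaca at 84129672 to 84401651 on the plus strand, and Srebf1 at 60199089 to 60222581 on the minus strand. Chromosome 5 holds Acacb (114146535 to 114250761) and Mlxipl (135089890 to 135138382), both on the plus strand. Elovl6 lies on chromosome 3 (129532355 to 129638495, plus strand), Scd1 on chromosome 19 (44394455 to 44407879, minus strand), Me1 on chromosome 9 (86581371 to 86695953, minus strand) and Thrsp on chromosome 7 (97412938 to 97417730, minus strand). Annotated exons of other genes covered at most 4.24% of the exon bases of a member, that share being Mlxipl under the antisense transcript Gm43500.

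The 250 bases upstream of annotated starts (RefSeq, GRCm38.p6, the mm10 assembly) were searched on both strands for 4 motifs of promoters of this kind: the sterol element TCACNCCAC, the E-box CACGTG, the CCAAT box CCAAT and the GC box GGGCGG. Of all 32851 promoters, 1.05% held the first, 6.02% the second, 33.8% the third and 32.7% the fourth. 9 of the 10 members had an entry in that set. Shown first, because their muscle levels lay below all controls in both tumor groups, are Fasn, Acly, Elovl6 and Thrsp, and then the 2 starts of Mlxipl, which was called lower with KPC than in each other group. Capitals mark motif matches on either strand, and each line runs 5′ to 3′ toward the start of transcription.
Fasn, chr11:120824548-120824797, minus strand: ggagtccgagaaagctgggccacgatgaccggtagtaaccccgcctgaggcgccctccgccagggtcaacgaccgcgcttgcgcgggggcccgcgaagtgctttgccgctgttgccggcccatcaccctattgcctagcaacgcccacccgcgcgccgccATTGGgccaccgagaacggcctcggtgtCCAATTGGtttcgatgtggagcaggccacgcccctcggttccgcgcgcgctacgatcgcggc
Acly, chr11:100528001-100528250, minus strand: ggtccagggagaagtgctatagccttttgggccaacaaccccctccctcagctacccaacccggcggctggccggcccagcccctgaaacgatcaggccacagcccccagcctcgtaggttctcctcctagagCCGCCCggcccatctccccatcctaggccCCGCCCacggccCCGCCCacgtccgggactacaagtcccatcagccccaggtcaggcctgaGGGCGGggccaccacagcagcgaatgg
Elovl6, chr3:129532136-129532385, plus strand: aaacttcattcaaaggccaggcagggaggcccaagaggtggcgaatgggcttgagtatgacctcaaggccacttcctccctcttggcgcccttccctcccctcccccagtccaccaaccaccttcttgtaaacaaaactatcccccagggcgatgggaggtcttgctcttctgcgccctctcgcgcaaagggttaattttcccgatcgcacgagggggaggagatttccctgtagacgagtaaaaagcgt
Thrsp, chr7:97417551-97417800, minus strand: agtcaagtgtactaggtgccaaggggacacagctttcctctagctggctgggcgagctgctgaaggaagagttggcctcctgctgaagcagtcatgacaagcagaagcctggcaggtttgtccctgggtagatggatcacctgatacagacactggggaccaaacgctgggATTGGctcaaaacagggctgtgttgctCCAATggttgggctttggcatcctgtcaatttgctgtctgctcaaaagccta
Mlxipl, upstream start, chr5:135089640-135089889, plus strand: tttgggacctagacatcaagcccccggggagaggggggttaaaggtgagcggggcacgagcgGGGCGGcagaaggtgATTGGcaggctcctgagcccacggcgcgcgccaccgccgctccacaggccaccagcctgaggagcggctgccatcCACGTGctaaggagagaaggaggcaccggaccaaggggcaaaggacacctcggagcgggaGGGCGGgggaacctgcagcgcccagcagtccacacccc
Mlxipl, downstream start, chr5:135106641-135106890, plus strand: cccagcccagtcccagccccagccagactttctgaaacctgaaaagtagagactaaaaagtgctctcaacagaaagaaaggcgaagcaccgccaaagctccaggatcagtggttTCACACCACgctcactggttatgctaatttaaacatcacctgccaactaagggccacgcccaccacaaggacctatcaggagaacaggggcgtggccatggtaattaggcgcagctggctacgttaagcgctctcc

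The Fasn window held 3 CCAAT boxes, 2 of them overlapping, and the Thrsp window held 2. Acly had 4 GC boxes and no other motif. None of the 4 strings occurred before the Elovl6 start, which says only that these letters were not in that window. For Mlxipl, the upstream start had 1 E-box, 1 CCAAT box and 2 GC boxes, and the downstream start had the only sterol element found among the members, 136 bases upstream. No motif was thus common to the 4 members shown first, and a match describes letters in the window, not a site.

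Library totals were 19259763 to 74907810 counts in muscle and 26306377 to 56308545 in fat, so that 3 counts corresponded to 0.0462 to 0.154 CPM (counts scaled to a common library size with TMM factors) in muscle and 0.0474 to 0.123 CPM in fat. The spread between mice of a group was far larger in fat, with a biological coefficient of variation of 63.5% against 22.7% in muscle. Muscle libraries held the fiber markers at 114892 to 181926 summed CPM and the fat libraries held adipocyte markers at 1583 to 26292 summed CPM. The fat pads were not alike in tissue content: Gpx5, an epididymis gene, was above 10000 CPM in 7 pads, namely all KPC pads, KPC IL6KO 6 and no tumor 5 and 7. The 5 remaining pads had 4.69 to 85.8 CPM of Gpx5 but were not free of epididymis genes. Crisp1, another such gene, was at 12023 and 14517 CPM in no tumor 6 and 8. In KPC IL6KO 7 and 8 it was at 12122 and 9432 CPM, and in KPC IL6KO 5 at 621 CPM. The 7 pads with high Gpx5 had 156 to 5754 CPM of Crisp1. The split is thus by Gpx5 and not by the presence of epididymis. The KPC group had no pad low in Gpx5, so a difference from such pads cannot be told apart from an effect of KPC. Values among the 7 pads with high Gpx5 are given beside the fat results.

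Per kilobase of exon, the levels of the members in no tumor mice spanned a wide range in both tissues. In muscle the order of mean CPM per kb ran from Scd1 (144) through Me1 (59.8), Acacb (43.0), Thrsp (30.1), Fasn (29.4), Srebf1 (18.8), Mlxipl (18.1), Acly (8.63) and Acaca (3.28) to Elovl6 (1.04). Scd1 at 96.5 to 226 and Me1 at 54.4 to 69.2 did not overlap, nor did Elovl6 overlap any other member, whereas Thrsp and Fasn (17.3 to 42.2) overlapped each other, as did Srebf1 and Mlxipl. In fat the order was Scd1 (2009), Acly (212), Thrsp (177), Fasn (127), Me1 (67.7), Srebf1 (56.4), Elovl6 (48.6), Acaca (14.7), Mlxipl (11.1) and Acacb (7.61). Within the fat of no tumor mice most neighbors in this order overlapped. The carboxylases changed places between the tissues: Acacb was the higher in muscle, at 41.1 to 44.0 CPM per kb against 2.09 to 4.73 for Acaca, while in fat Acaca had the higher mean and the ranges overlapped.

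The first comparison asked what a KPC tumor does to these genes in muscle. With the KPC tumor, 7 members were lower and 1 was higher than in no tumor mice by edgeR's quasi-likelihood test (false discovery rate [FDR] at most 0.05 over all genes and fold change [FC] of at least 1.5), and 2 did not pass. This has to be read against the whole muscle table, in which 29% of genes were called lower and 26.7% higher (55.7% in all). The median log2 FC of the 10 members was -1.42, beside -0.03 over all genes. The members were proposed with results of these data known, so these counts describe them and are not independent evidence. The second comparison, of KPC IL6KO with no tumor, shares the no tumor mice with the first. It called no gene of either direction (0% of the table), 887 genes (6.91%) having an unadjusted p under 0.05, and 7 of the 10 members among these.

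**Figure D1:**
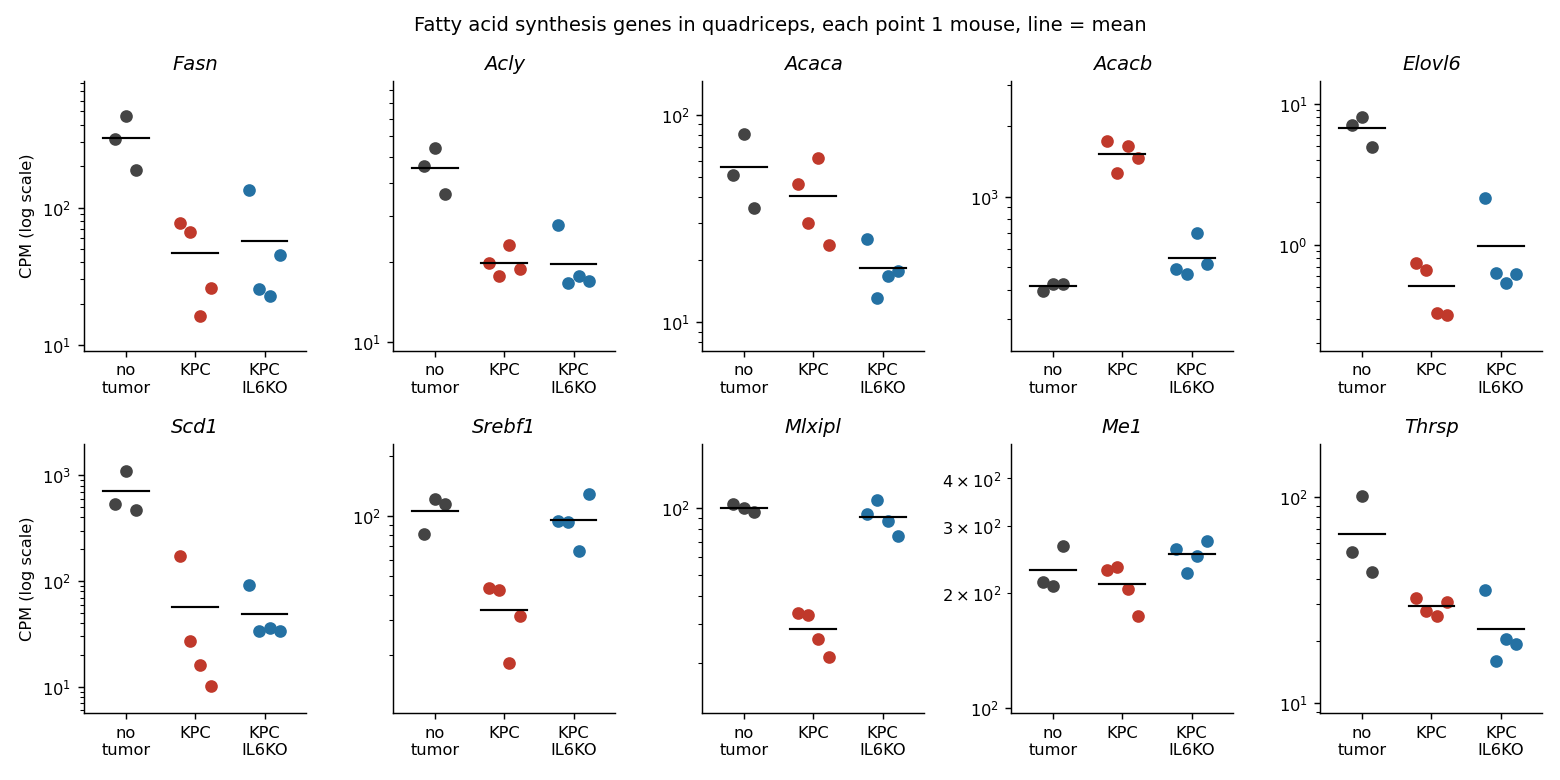
CPM (log scale) of each member in quadriceps, 1 panel per gene and 1 point per mouse (3 no tumor, 4 KPC, 4 KPC IL6KO), with a line at the group mean. Fasn, Acly, Elovl6, Scd1 and Thrsp lie below all no tumor mice in both tumor groups, Srebf1 and Mlxipl only in the KPC group, and Acacb is raised in the KPC group, at 1259 to 1733 CPM.

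Citrate cleavage and NADPH supply behaved differently. Acly was at 46.4, 54.1 and 36.2 CPM in no tumor muscle, at 19.9, 17.8, 23.3 and 18.9 CPM in KPC muscle, and at 27.7, 16.7, 17.7 and 17.0 CPM in KPC IL6KO muscle. All 8 tumor-bearing mice were below the 3 controls, and the tumor groups overlapped. The log2 FC was -1.19 ± 0.19 (SE) with KPC (2.28-fold lower, FDR = 0.00022) and -1.21 ± 0.19 with KPC IL6KO (FDR = 0.162). Me1, the cytosolic malic enzyme, was at 209 to 266 CPM in no tumor, 174 to 234 CPM in KPC and 226 to 274 CPM in KPC IL6KO muscle. Its groups overlapped, with a 95% confidence interval of the log2 FC of -0.41 to 0.17 for KPC and -0.15 to 0.43 for KPC IL6KO.

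The 2 carboxylases moved apart. Acacb, the mitochondrial form and the main one of muscle, was at 396, 424 and 422 CPM in no tumor mice, at 1733, 1259, 1645 and 1468 CPM in KPC mice, and at 493, 470, 702 and 516 CPM in KPC IL6KO mice. The 3 groups did not overlap in any pair. KPC raised it 3.69-fold over no tumor (log2 FC 1.88 ± 0.17, FDR = 3.73e-06) and 2.80-fold over KPC IL6KO (1.49 ± 0.15, FDR = 6.61e-06), while the KPC IL6KO tumor gave 0.40 ± 0.16 (FDR = 0.594). Acacb was the only member higher with KPC in muscle.

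Acaca, the cytosolic form that feeds Fasn, was at 51.3, 80.8 and 35.7 CPM without tumor, at 46.3, 30.2, 61.7 and 23.5 CPM with KPC, and at 25.2, 13.1, 16.8 and 17.7 CPM with KPC IL6KO. Here the lowest group was KPC IL6KO, all 4 mice being under the 3 controls, and KPC overlapped both other groups. Against no tumor the log2 FC was -0.47 ± 0.35 with KPC (FDR = 0.244) and -1.62 ± 0.35 with KPC IL6KO (FDR = 0.228). KPC against KPC IL6KO gave 1.15 ± 0.33 (FDR = 0.00805), a call that was lost (0.60, FDR = 0.358) in the 6 libraries with at least 500 CPM of adipocyte markers, where KPC IL6KO was 1 mouse and KPC 2.

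Fasn was at 315, 462 and 189 CPM in no tumor muscle, at 77.2, 66.2, 16.4 and 25.9 CPM in KPC muscle, and at 134, 25.6, 22.7 and 45.1 CPM in KPC IL6KO muscle. No tumor-bearing mouse reached the lowest control. The log2 FC was -2.79 ± 0.67 with KPC (6.93-fold lower, FDR = 0.00312) and -2.50 ± 0.67 with KPC IL6KO (FDR = 0.321). KPC and KPC IL6KO differed by -0.29 (95% interval -1.62 to 1.04) with an FDR of 0.690. Without KPC IL6KO 1 that difference was 0.58.

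The largest falls were in elongation and desaturation. Elovl6 was at 7.05, 8.01 and 4.92 CPM in no tumor mice (96 to 409 counts), at 0.739, 0.668, 0.327 and 0.320 CPM in KPC mice (17 to 48 counts), and at 2.15, 0.631, 0.535 and 0.617 CPM in KPC IL6KO mice (34 to 109 counts). Both tumor groups lay under the controls, and mouse KPC IL6KO 1 stood apart from the other 3 of its group. KPC lowered Elovl6 12.9-fold (log2 FC -3.69 ± 0.50, FDR = 6.36e-05), and the KPC IL6KO difference was -2.78 ± 0.48 (FDR = 0.209). Between the tumors the difference was -0.91 ± 0.47 (FDR = 0.104), and -0.20 without KPC IL6KO 1.

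Scd1 was at 541, 1107 and 472 CPM without tumor, at 174, 27.3, 16.3 and 10.1 CPM with KPC, and at 91.7, 34.1, 36.01 and 33.5 CPM with KPC IL6KO. Again no tumor-bearing mouse came near the controls, and KPC 1 and KPC IL6KO 1 were the highest of their groups. KPC gave a log2 FC of -3.63 ± 0.87 (12.4-fold lower, FDR = 0.00297). With KPC IL6KO the log2 FC was -3.86 ± 0.88, lower than that of all but 0.0156% of the genes in the table, yet with an FDR of 0.278. Without KPC 1 the difference of KPC from no tumor was -5.30, and that of KPC from KPC IL6KO turned from 0.22 to -1.45 and was called (FDR = 0.0206).

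Among the regulators the tumor types parted. Srebf1 was at 81.2, 121 and 115 CPM in no tumor, at 43.2, 42.1, 18.2 and 31.3 CPM in KPC, and at 94.6, 93.5, 66.1 and 128 CPM in KPC IL6KO muscle. Only the KPC mice were below the others, with no overlap. The log2 FC was -1.65 ± 0.29 against no tumor (3.14-fold lower, FDR = 0.000367) and -1.50 ± 0.27 against KPC IL6KO (FDR = 0.000459), while KPC IL6KO differed from no tumor by -0.15 (95% interval -0.77 to 0.48).

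Mlxipl followed the same order with little spread. Its levels were 105, 99.9 and 96.0 CPM in no tumor mice, 33.5, 32.8, 25.7 and 21.2 CPM in KPC mice, and 94.2, 108, 87.0 and 74.9 CPM in KPC IL6KO mice. It was 3.54-fold lower with KPC than without tumor (log2 FC -1.82 ± 0.17, FDR = 4.76e-06) and 3.22-fold lower than with KPC IL6KO (-1.69 ± 0.16, FDR = 4.86e-06). The KPC IL6KO difference from no tumor was -0.14 (95% interval -0.50 to 0.23).

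Thrsp sided with Fasn, Acly, Elovl6 and Scd1. It was at 53.9, 101 and 43.3 CPM in no tumor muscle, at 32.4, 28.0, 26.2 and 30.7 CPM in KPC muscle, and at 35.4, 16.0, 20.5 and 19.2 CPM in KPC IL6KO muscle, both tumor groups lying below all controls. The log2 FC was -1.17 ± 0.30 with KPC (FDR = 0.00424) and -1.54 ± 0.30 with KPC IL6KO (FDR = 0.209). Without KPC IL6KO 1, KPC was called higher than KPC IL6KO for this gene (0.66, FDR = 0.0365), where all mice gave 0.37 (FDR = 0.257).

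Set side by side, 8 members did not overlap between KPC and no tumor muscle (65.3% of all genes did not), and 7 did not overlap between KPC IL6KO and no tumor, where 15.5% of genes did not. Of the latter 7, Fasn, Acly, Acaca, Elovl6, Scd1 and Thrsp were lower (8.01% of genes were lower without overlap) and Acacb was higher (7.54%). The calls of the 6 lower members depended on the test that was used, and Acacb was called by none of the tests. The quasi-likelihood test called none of the 7. By edgeR's likelihood ratio test the 6 lower members were called (0.546% of all genes being called lower by it), and DESeq2 called those 6 except Fasn (0.514%). With KPC IL6KO 1 left out, Elovl6 (log2 FC -3.49, FDR = 0.0168) and Acly (-1.41, FDR = 0.0171) passed the quasi-likelihood test, and no other gene of the table did in either direction.

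The third comparison, of KPC with KPC IL6KO, asked what differed between mice with the clone that kept Il6 and the clone that lost it. In muscle it called Acaca and Acacb higher and Srebf1 and Mlxipl lower with KPC, against 26.4% and 27.3% of all genes called in those directions (53.6% in all). The groups did not overlap for 3 of these 4, Acaca being the exception, and for 62% of all genes. The other 6 were not called, at log2 FC values of 0.01 for Acly, -0.29 for Fasn, -0.91 for Elovl6, 0.22 for Scd1, -0.26 for Me1 and 0.37 for Thrsp. The interval for Acly was narrow (-0.38 to 0.41), and that for Scd1 was wide (-1.44 to 1.89).

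**Figure D2:**
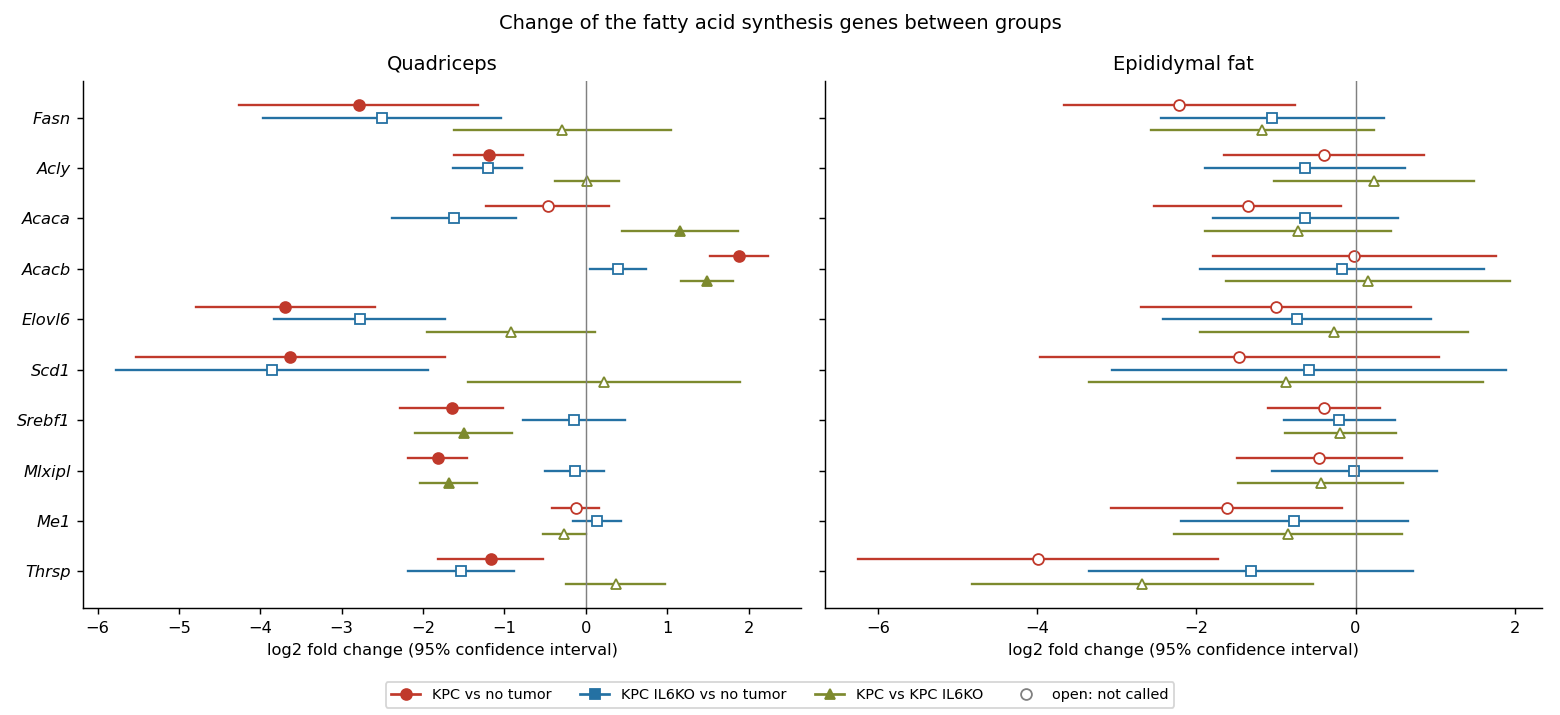
Log2 FC of each member with its 95% confidence interval in quadriceps (left) and epididymal fat (right) for KPC vs no tumor, KPC IL6KO vs no tumor and KPC vs KPC IL6KO; filled symbols were called, open symbols were not. In muscle the intervals of Fasn, Acly, Elovl6, Scd1 and Thrsp lie below 0 for both tumors and those of Srebf1 and Mlxipl only for KPC; in fat no symbol is filled.

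Markers of other cells moved in the same muscle libraries. The 8 adipocyte markers, all present in the table, summed to 999, 2538 and 509 CPM in no tumor mice, to 840, 1649, 247 and 128 CPM in KPC mice, and to 612, 189, 449 and 328 CPM in KPC IL6KO mice. All 8 had log2 FC values below 0 with either tumor; 2 of them (Lep and Adrb3) were called lower with KPC, and none with KPC IL6KO. The median log2 FC of the list was -1.42 with KPC and -2.23 with KPC IL6KO. The fibroblast markers summed to 570 to 614 CPM in no tumor, 159 to 268 CPM in KPC and 332 to 455 CPM in KPC IL6KO muscle, and 4 of 4 were called lower with KPC. The 3 neutrophil markers in the table summed to 0.0512 to 0.294 CPM, 3.93 to 20.6 CPM and 1.14 to 2.54 CPM in the same order, and all 3 were called higher with KPC. For both lists each tumor group lay apart from the controls, and with KPC IL6KO no gene of either was called. Muscle fiber markers summed to 147072 to 180206 CPM, 114892 to 134745 CPM and 167217 to 181926 CPM, the KPC mice being below all others. Of these 7 markers 1 was called lower with KPC. Myh1 (6204 against 5140 CPM) and Tnnt3 (24715 against 21835 CPM) had higher means with KPC than without tumor. Of 4 endothelial markers 2 were called lower with KPC, and of 5 macrophage markers 1 was called higher and 2 lower. Alb, a hepatocyte gene, was called higher, at 97.3 CPM in KPC 4 and 0.655 to 1.08 CPM in the other KPC mice. No brown adipocyte or mesothelial marker was called with KPC. Over all genes 29% were called lower and 26.7% higher with KPC. The part of these cells in the members' values was not tested. In bulk RNA, fewer cells of a type and less RNA per cell cannot be told apart.

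The adipocyte markers and the members can be read together in single mice. KPC 1 and KPC 2 had adipocyte marker sums within the no tumor range, and their Fasn (77.2 and 66.2 CPM) and Scd1 (174 and 27.3 CPM) were below every control. These sums do not match the mice for each marker. Lep was at most 5.88 CPM in KPC mice and at least 6.58 CPM in controls, and Adrb3 at most 3.75 and at least 3.89 CPM. The other 6 markers overlapped between KPC and no tumor. In the 6 libraries with at least 500 CPM of these markers (3 no tumor, 2 KPC, 1 KPC IL6KO), an alternative chosen after the values were seen, the same 7 members were called lower and Acacb higher with KPC, with log2 FC values of -2.17 for Fasn, -2.81 for Scd1 and -3.25 for Elovl6. For KPC IL6KO only 1 mouse was left, and its differences from no tumor were smaller, at -1.27 for Fasn, -0.72 for Acly and -2.95 for Scd1. How much of the difference with either tumor belongs to adipocytes within the muscle was not tested.

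**Figure D3:**
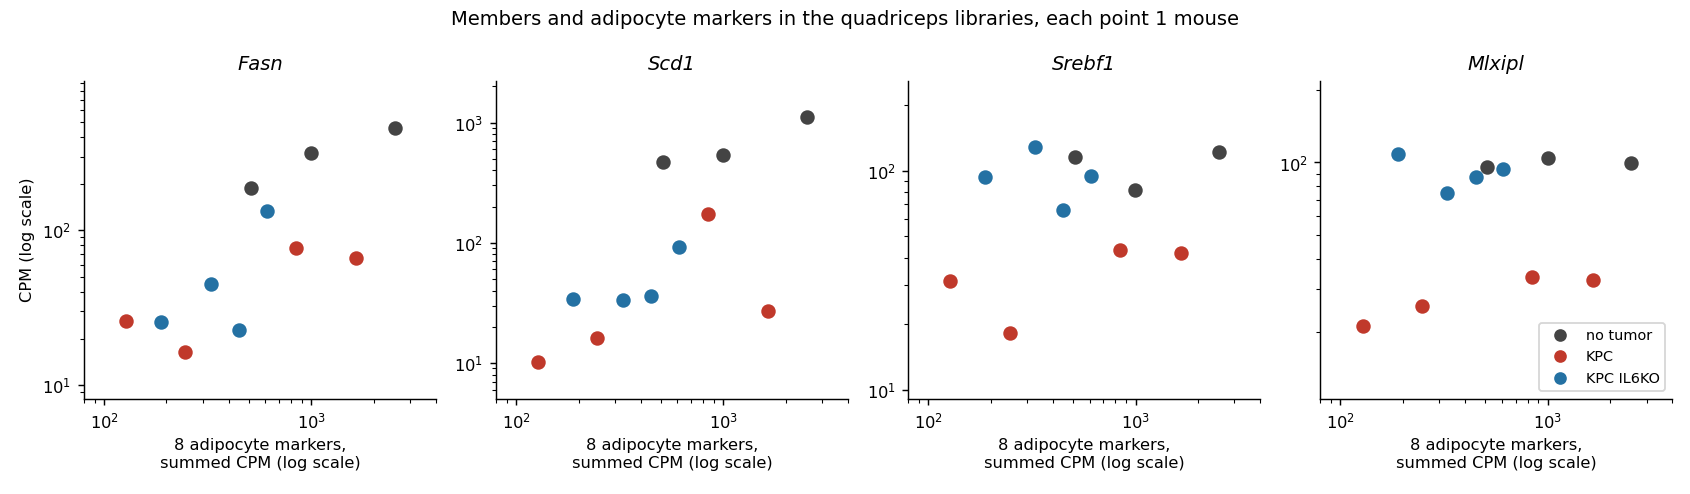
CPM of Fasn, Scd1, Srebf1 and Mlxipl against the summed CPM of 8 adipocyte markers in the 11 quadriceps libraries (both axes log scale, 1 point per mouse). The KPC mice with marker sums of 840 and 1649 CPM lie below the no tumor mice in each panel, whereas the KPC IL6KO mice overlap the no tumor mice for Srebf1 and Mlxipl.

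Of 68 further genes of the pathway, grouped by role, 61 were in the muscle table. Apart from the 3 highest, the 3 lowest and the most abundant gene of each role, the genes named below were chosen after their values were seen. With KPC, 13 were called higher and 20 lower, with a median log2 FC of -0.13. As shares these are close to those of the whole table (26.7% higher and 29% lower), so the counts do not set the pathway apart, and those by role below are a description. The 3 lowest were Prkag3, the AMPK subunit of glycolytic muscle (-3.64 ± 0.30), Slc25a1, the carrier that exports citrate from mitochondria (-2.53 ± 0.66), and Hacd1, the muscle dehydratase of the elongation cycle (-1.97 ± 0.22). The 3 highest were Lpin1, which makes diacylglycerol and acts in the nucleus (1.97 ± 0.20), Txnip, a target of ChREBP (1.93 ± 0.35), and Irs2, an insulin receptor substrate (1.62 ± 0.39).

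Supply of acetyl-CoA and NADPH had 6 of 9 genes lower and 2 higher. The citrate carrier Slc25a1 was at 30.7 CPM in no tumor and 5.34 CPM in KPC muscle on average, and Mdh1, cytosolic malate dehydrogenase and the highest of this role per kilobase, fell by 0.75 on the log2 scale. The 2 genes that rose were Acss2 (1.19 ± 0.25), which makes acetyl-CoA from acetate, and Pgd (1.05 ± 0.17), of the pentose phosphate pathway. In elongation and desaturation 7 of 12 measured genes were lower and 1 higher. Scd2, the second stearoyl-CoA desaturase, was -1.83 ± 0.23, the same direction as Scd1, while Tecr, the most abundant gene of the role, was at 0.06 ± 0.13 (FDR = 0.684).

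Around malonyl-CoA, 2 of 9 genes were higher and 2 lower. Mlycd, which degrades malonyl-CoA, rose with Acacb (1.41 ± 0.21), and the most abundant, Prkab2, was at -0.31 ± 0.16 (FDR = 0.114). SREBP processing had 1 of 6 higher (Mbtps2, 1.16 ± 0.19) and 2 lower (Srebf2, -0.93 ± 0.16, and Insig2, the most abundant, -0.69 ± 0.12). Of partners and upstream factors 3 of 9 were higher (Txnip, the most abundant; Nr1h2, the liver X receptor beta, at 1.32 ± 0.14; and Mlxip, at 0.68 ± 0.13) and the others were not called. Triglyceride synthesis split, with Lpin1 higher and Gpam (-1.19 ± 0.30) and Agpat2 (-1.61 ± 0.41) lower among 5, and Dgat2, the most abundant, at 0.37 ± 0.37 (FDR = 0.384).

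Glucose entry and insulin signal had Irs2 and Insr (1.37 ± 0.13) higher and Irs1 (-1.14 ± 0.31) lower among 6 genes, with Slc2a4, the insulin-responsive glucose carrier and the most abundant, at 0.06 ± 0.25 (FDR = 0.827). Mitochondrial fatty acid synthesis, a separate pathway, had 1 of 5 higher (Mcat, also its most abundant gene, 0.93 ± 0.11). With KPC IL6KO none of the 61 was called by the quasi-likelihood test, 14 had an unadjusted p under 0.05, and DESeq2 and the likelihood ratio test each called 3 lower. KPC against KPC IL6KO called 15 higher and 12 lower. The 3 highest were Irs2 (2.36 ± 0.36), Txnip (1.77 ± 0.31) and Lpin1 (1.64 ± 0.18), and the 3 lowest were Prkag3 (-3.34 ± 0.29), Hacd4, another dehydratase, at a level of only 0.181 CPM with KPC (-2.28 ± 0.34), and Hacd1 (-1.86 ± 0.21).

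**Figure D4:**
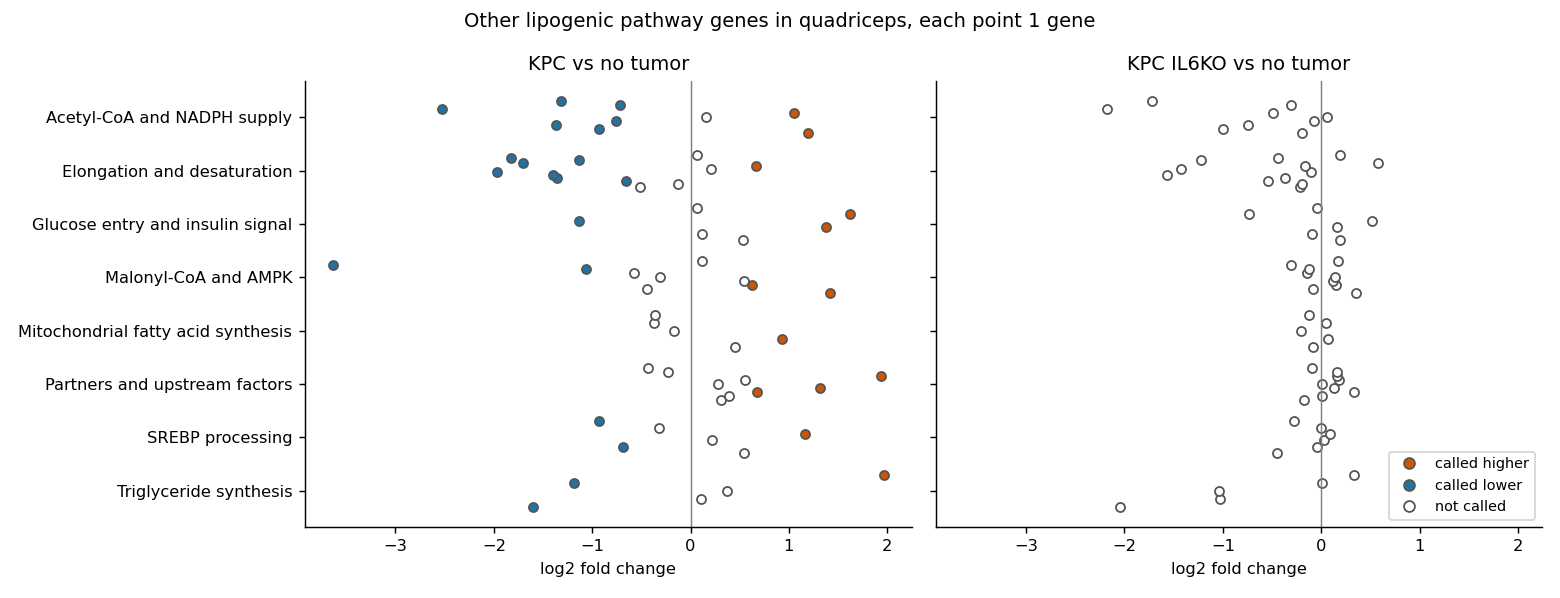
Log2 FC of 61 further pathway genes in quadriceps by role, for KPC vs no tumor (left) and KPC IL6KO vs no tumor (right), 1 point per gene and filled where called. In the left panel 13 genes are called higher and 20 lower and every role but 2 has calls on both sides; in the right panel no point is filled.

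In epididymal fat no member was called in any of the 3 comparisons, and neither was any gene of the table by the quasi-likelihood test (0% of 16962). The count at an unadjusted p under 0.05 was 2061 genes (12.2%) for KPC against no tumor, 1584 (9.34%) for KPC IL6KO against no tumor and 1062 (6.26%) between the tumors, of which 4, 0 and 1 were members. All 10 members had a log2 FC below 0 with KPC, as did 59.4% of all genes, and all 10 with KPC IL6KO, as did 53% of all genes. Between the tumors 8 of 10 were below 0, as were 55.5% of all genes. No member was free of overlap between KPC IL6KO and no tumor (2.01% of genes were) or between KPC and KPC IL6KO (4.33%). Both comparisons rest on the same 4 controls, and no tumor 6 was the highest control for 8 of the 10 members, all but Acly and Elovl6. The median log2 FC of the members was -1.18 with KPC and -0.63 with KPC IL6KO, beside -0.10 and -0.03 over all genes.

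Fasn was at 631, 3563, 577 and 769 CPM in no tumor fat, at 170, 341, 374 and 307 CPM in KPC fat, and at 346, 846, 1115 and 375 CPM in KPC IL6KO fat. It was the only member whose KPC pads lay wholly below the controls (4.39% of genes did so, and 10.9% did not overlap in either direction), and the KPC IL6KO pads fell on both sides. The log2 FC was -2.22 ± 0.66 with KPC (FDR = 0.255) and -1.05 ± 0.64 with KPC IL6KO (FDR = 0.654). Without no tumor 6 the KPC value was -1.14, and among the 7 pads with high Gpx5 it was -0.92 (FDR = 0.162).

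Thrsp had the lowest KPC log2 FC of the members, and 0.33% of all genes had a lower one. It was at 112, 1090, 45.2 and 302 CPM in no tumor fat, at 11.5, 55.9, 18.5 and 11.4 CPM in KPC fat, and at 55.1, 160, 322 and 86.3 CPM in KPC IL6KO fat. Only KPC 6 reached into the no tumor range. The log2 FC was -3.99 ± 1.03 with KPC (FDR = 0.225), -1.31 ± 0.93 with KPC IL6KO (FDR = 0.663) and -2.68 ± 0.97 between the tumors (FDR = 0.678). Without no tumor 6 the KPC value was -2.65, and among the pads with high Gpx5 it was -1.59 (FDR = 0.254). Fasn and Thrsp with KPC were called lower by DESeq2 (FDR = 0.0175 and 0.000748; 1.3% of all genes called lower) and by the likelihood ratio test (FDR = 0.0446 and 0.00647; 0.855%).

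Acaca and Me1 also had an unadjusted p under 0.05 with KPC. Acaca was at 147, 608, 88.2 and 164 CPM in no tumor, at 103, 108, 98.4 and 83.8 CPM in KPC and at 100, 156, 268 and 125 CPM in KPC IL6KO fat, and its KPC log2 FC was -1.36 ± 0.54 (FDR = 0.357). Me1 was at 84.9, 666, 53.5 and 237 CPM, at 122, 58.2, 70.0 and 89.1 CPM and at 172, 98.5, 211 and 129 CPM in the same order, with a KPC log2 FC of -1.62 ± 0.66 (FDR = 0.367). The controls of both genes split by Gpx5, since no tumor 5 and 7 were the lower pair of each. Without no tumor 6 the KPC value was -0.44 for Acaca and -0.56 for Me1. Within the pads with high Gpx5 the KPC difference was -0.15 for Acaca and turned to 0.39 for Me1.

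Scd1, the highest member in fat, was at 4250, 28714, 1866 and 4477 CPM in no tumor pads, at 11264, 1078, 1054 and 908 CPM in KPC pads, and at 1721, 5257, 15157 and 4076 CPM in KPC IL6KO pads. In KPC fat 3 pads were below all others and KPC 5 was the third highest of the 12. The log2 FC with KPC was -1.46 ± 1.14 (FDR = 0.651), while leaving out KPC 5 gave -3.28 and leaving out no tumor 6 gave 0.018. Acacb ranged from 10.2 to 201 CPM without tumor, 35.7 to 146 CPM with KPC and 32.2 to 113 CPM with KPC IL6KO, with log2 FC values of -0.01 ± 0.81 and -0.17 ± 0.81. The 95% interval of the KPC value of Acacb in fat was -1.80 to 1.77, and its tissue difference from muscle was not called (-1.79, FDR = 0.134). Among the pads with high Gpx5 the KPC value was 2.37 for Acacb (FDR = 0.110) and 0.32 for Scd1 (FDR = 0.954).

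Acly and Elovl6 were highest in the 3 pads with high Gpx5 outside the KPC group. Elovl6 was at 653 and 411 CPM in no tumor 5 and 7 and at 497 CPM in KPC IL6KO 6, those 3 pads, and at 68.7 to 116 CPM in the 5 pads with low Gpx5. KPC pads, all high in Gpx5, had 87.9 to 191 CPM. Acly was at 1751 and 1390 CPM in no tumor 5 and 7 and at 1635 CPM in KPC IL6KO 6, at 621 to 967 CPM in KPC pads and at 236 to 910 CPM in the pads with low Gpx5. The KPC log2 FC over all pads was -1.002 ± 0.77 for Elovl6 (FDR = 0.646) and -0.40 ± 0.57 for Acly (FDR = 0.785). Within the pads with high Gpx5 it was -1.66 for Elovl6 (FDR = 0.0589) and -0.79 for Acly (FDR = 0.110).

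The levels of both regulators overlapped between the groups in fat. Srebf1 was at 251 to 372 CPM without tumor, 147 to 292 CPM with KPC and 175 to 401 CPM with KPC IL6KO, giving -0.40 ± 0.32 with KPC (FDR = 0.657). Mlxipl was at 38.8 to 115 CPM, 37.2 to 51.7 CPM and 16.5 to 87.0 CPM, giving -0.45 ± 0.47 (FDR = 0.711). Among the 68 further pathway genes, all in the fat table, the quasi-likelihood test called none in any comparison, and 13, 2 and 5 had an unadjusted p under 0.05 in the 3 comparisons. Over all genes the shares at that p were 12.2%, 9.34% and 6.26%. For KPC against no tumor DESeq2 called 3 of the 68 lower (1.3% of all genes) and the likelihood ratio test 4 (0.855%). Of the most abundant gene of each role, Dgat2, the last enzyme of triglyceride synthesis, had the lowest KPC value (-3.48 ± 0.84, FDR = 0.218, no overlap), followed by Insig1 (-0.99 ± 0.52), Hk2 (-0.88 ± 0.29), Scd2 (-0.54 ± 0.50), Mecr (-0.54 ± 0.38), Mdh1 (-0.40 ± 0.24), Prkag1 (0.01 ± 0.22) and Txnip (0.13 ± 0.58).

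**Figure D5:**
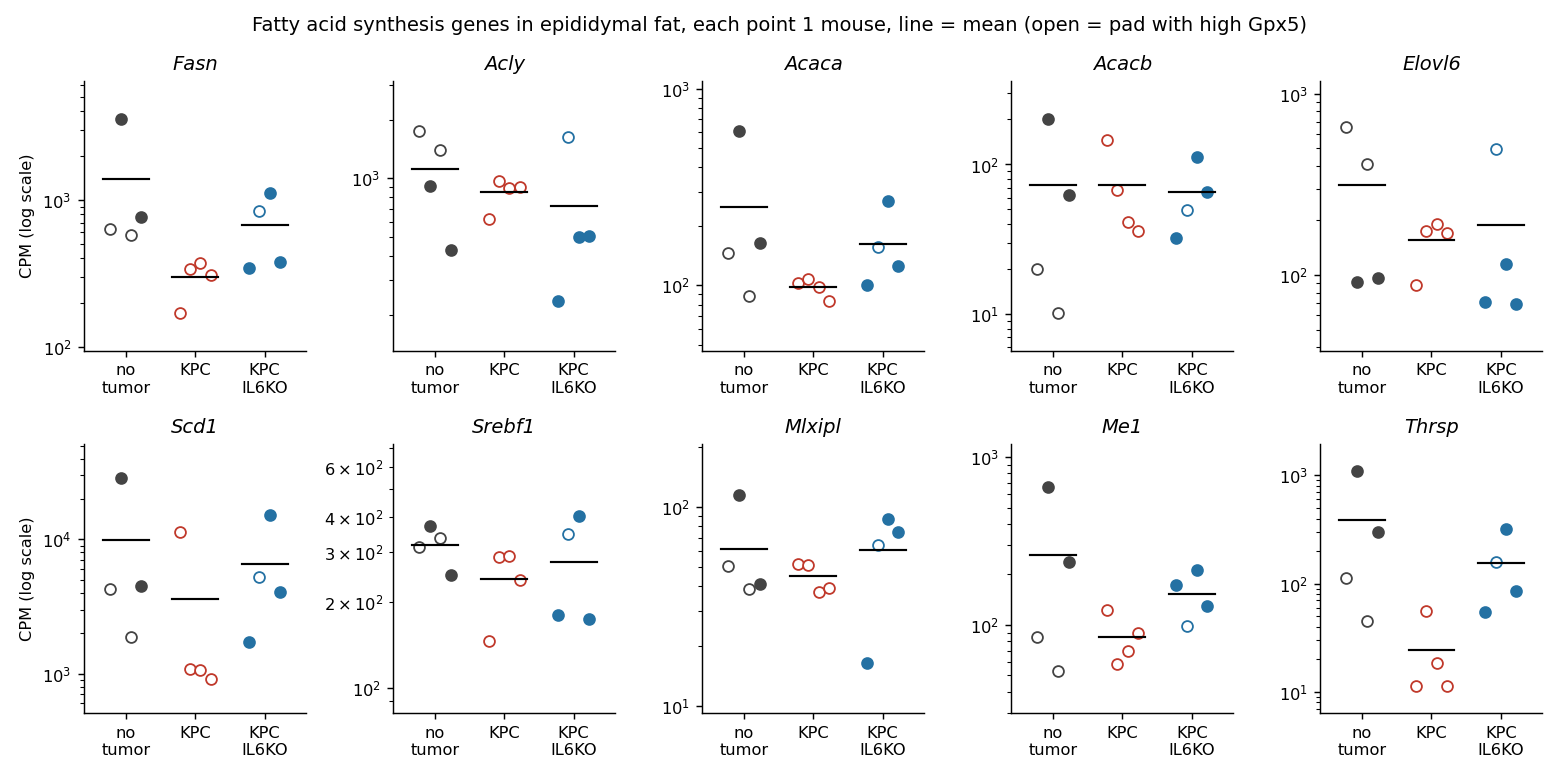
CPM (log scale) of each member in epididymal fat, 1 panel per gene and 1 point per pad (4 per group), with a line at the group mean; open points are pads with Gpx5 above 10000 CPM. The KPC pads are all open, Fasn is the only gene whose 4 KPC pads lie below all 4 no tumor pads, and Elovl6 and Acly are highest in open pads of the other 2 groups.

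Marker sums of other cells also varied among the pads. The 8 adipocyte markers summed to 4314, 26292, 1583 and 9407 CPM in no tumor, 10198, 4983, 3267 and 2326 CPM in KPC and 4512, 5778, 17241 and 7733 CPM in KPC IL6KO fat. The pads with the largest sums of their groups were no tumor 6, KPC 5 and KPC IL6KO 7. These were also the highest of their groups for Scd1, Acacb, Mlxipl and Me1. Fasn, Acaca, Srebf1 and Thrsp were highest in no tumor 6 and KPC IL6KO 7 but not in KPC 5. Acly and Elovl6 were highest in other pads of each group. KPC 5 had the lowest Fasn of all 12 pads (170 CPM). It also had the lowest Srebf1 (147 CPM), Acly (621 CPM) and Elovl6 (87.9 CPM) of the KPC pads. Macrophage markers summed to 189 to 772 CPM in no tumor, 839 to 1281 CPM in KPC and 314 to 2179 CPM in KPC IL6KO pads. Neutrophil markers summed to 0.232 to 3.74 CPM, 10.8 to 38.2 CPM and 1.23 to 22.2 CPM in the same order, and KPC did not overlap no tumor for either list. Muscle fiber markers were at 1.87 to 9.31 CPM in KPC pads, 8.43 to 279 CPM in no tumor pads and 94.2 to 2639 CPM in KPC IL6KO pads. The part of these cells in the fat values was not tested.

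Whether the effect of a tumor differed between the tissues was tested over the 12599 genes of both tables. For KPC, 3 members were called, with 36.9% of genes called: Elovl6 (log2 FC in fat minus that in muscle 2.83 ± 0.99, FDR = 0.0291), Srebf1 (1.37 ± 0.46, FDR = 0.0231) and Mlxipl (1.48 ± 0.54, FDR = 0.0362). Each was lower with KPC in muscle by more than in fat. These calls were near the threshold, and the number of members called was 0 without muscle no tumor 2 and 5 without fat no tumor 7. Fasn (0.69 ± 0.97) and Scd1 (2.28 ± 1.47) were not called. For KPC IL6KO no gene was called by the quasi-likelihood test (0%), while the likelihood ratio test called 39 genes (0.31%), DESeq2 46 (0.365%) and limma 1278 (10.1%). By the quasi-likelihood test Elovl6 was at 2.02 ± 0.97 (FDR = 0.626) and Scd1 at 3.27 ± 1.49 (FDR = 0.598). Muscle and fat RNA were isolated and sequenced separately, and tissue and run cannot be told apart in this test.

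The members kept company to different degrees. Over the 11 muscle libraries Pearson's r of a member's log2 CPM with the mean of the other 9 was 0.961 for Scd1, 0.960 for Elovl6, 0.944 for Fasn, 0.862 for Acly, 0.780 for Thrsp, 0.506 for Srebf1, 0.498 for Mlxipl, 0.462 for Acaca, 0.0896 for Me1 and -0.722 for Acacb. Over the 12 fat libraries Acaca (0.913) and Fasn (0.884) were highest, and Acly (0.176) and Elovl6 (-0.035) were lowest. The genes most like the mean of the 10 members among 10511 others in muscle were Cd1d1 (r = 0.948), Tmem45b (0.939), Rab34 (0.933), Slc1a5 (0.930) and Sulf2 (0.930). Among 13906 in fat they were Pccb (0.985), Oxct1 (0.982), Mut (0.977), Gpt2 (0.970) and D10Jhu81e (0.964). These are descriptions over libraries that share the group differences, depth and tissue content given above.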

How the data were processed

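Whole-gene read counts were deposited by the authors as 1 table per tissue, unnormalized. Per the methods and the submitters' processing notes they were made with STAR on mm10 and featureCounts 1.5.1 (Subread) from uniquely mapped reads, with FastQC for quality and edgeR 3.12.1 for the authors' tests; 1 no tumor muscle sample that the authors set aside as an outlier was not analysed here. Library totals were 19259763 to 74907810 counts in muscle and 26306377 to 56308545 in fat. The intervals cover counting error and the spread between these mice, and the floors cover counting only. Neither covers an error shared by all libraries of a group. Groups came from the sample labels. Muscle and fat RNA were prepared and sequenced separately, so each tissue was fitted alone.

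The 3 groups of a tissue entered 1 edgeR 4.0.16 quasi-likelihood fit (R 4.3.3) with TMM scaling and no covariate. Calls needed an FDR (Benjamini-Hochberg, over every gene of the table) of at most 0.05 together with FC of at least 1.5. CPM used TMM-scaled totals, CPM per kb the summed exon length, and log2 CPM a prior count of 2. SE is the log2 FC over the square root of F. Genes present in both tables (12599) gave the tissue difference as an interaction term. Scripts were tested on simulated counts. Alternatives were DESeq2 1.42.0, the likelihood ratio test, a newer quasi-likelihood fit, RLE scaling, no filter or at least 10 counts, only the groups compared, a replicate block, pads split at 10000 CPM of Gpx5, leaving out each library, and limma 3.58.1 for the tissue difference. The members and all gene lists were chosen with earlier results of these data known. Named by rule were the 10 members, the 3 highest and 3 lowest called pathway genes of a comparison, the most abundant gene of each role, and the 5 genes most like the members. Other pathway genes named in muscle were chosen after their values were seen. Replicate numbers label different mice; deviations of same-numbered libraries from their group means correlated at -0.155 to 0.265 in muscle and -0.539 to 0.650 in fat, so the numbers were not taken to pair libraries. The labels do not say that mice were raised or operated on separately, and p-values measure the spread between these mice. Figures were drawn with matplotlib 3.10.9 (Python 3.11.15).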

Additional observations from a re-analysis of the deposited data

Results flagged for a closer look

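Of 50 groups of 4 libraries, 11 had a highest sample separated from the other 3 by more than Dixon's 95% critical share of the range. The usual rate of about 1 in 20 is for independent values with a normal spread. These were CPM values without logs, of genes from the same libraries, so that rate does not apply and the 11 are a description. In muscle these were KPC IL6KO 1 for Acly (27.7 CPM), Elovl6 (2.15 CPM) and Scd1 (91.7 CPM), and KPC 1 for Scd1 (174 CPM). KPC IL6KO 1 also had the highest adipocyte marker sum of its group (612 CPM), whereas KPC 1 (840 CPM) was below KPC 2 (1649 CPM). In fat, no tumor 6 stood apart for Fasn (3563 CPM), Acaca (608 CPM), Scd1 (28714 CPM) and Mlxipl (115 CPM), and it had the largest adipocyte marker sum of all 12 pads (26292 CPM). The other fat values were KPC 5 for Scd1 (11264 CPM), KPC 6 for Thrsp (55.9 CPM) and KPC IL6KO 6 for Elovl6 (497 CPM), the last being the only pad of its group with high Gpx5. The part of tissue content in these values was not tested.

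The KPC effect differed between fat and muscle by the interaction test for Elovl6 (log2 difference 2.83), Srebf1 (1.37) and Mlxipl (1.48), each being lower with KPC in muscle by more than in fat. Of all genes, 36.9% were called by this test. The 3 calls were near the threshold, and no member was called without muscle no tumor 2.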

How the results depend on the processing

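In muscle the 7 lower and 1 higher calls with KPC were the same in number under every alternative run, each left-out library included. The number of members called lower with KPC IL6KO in muscle was 0, but 5 by DESeq2 and 6 by the likelihood ratio test, and 0 to 2 when libraries were left out in turn. In fat with KPC it was 0, but 2 by each of those tools. All genes called in fat with KPC were 0 by the quasi-likelihood test, 364 higher and 221 lower by DESeq2, and 268 and 145 by the likelihood ratio test. For the tissue difference, limma called 1 member (Scd1) with KPC IL6KO, and leaving out libraries gave 0 to 5 members with KPC. The cause was not tested.

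With the replicate block, as if numbers paired the libraries, the member counts with KPC in muscle stayed at 7 lower and 1 higher. The block called Elovl6 between KPC and KPC IL6KO (-0.84, FDR = 0.0488), so that 3 members were lower there, and changed no other member's call. It turned the sign of Scd1 (-0.45) in that muscle comparison, and in fat of Acacb with KPC (0.37) and KPC IL6KO (0.35), Mlxipl with KPC IL6KO (0.025) and Elovl6 between the tumors (0.10).

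The muscle subset with at least 500 CPM of adipocyte markers was chosen after seeing the data, and its KPC IL6KO arm is 1 library, assumed to vary like the other groups. It left 1 member higher between KPC and KPC IL6KO and turned Acly (-0.56) and Thrsp (-0.23) there, called Elovl6 lower there (-1.61, FDR = 0.0186), and turned Me1 with KPC (0.014). Acly between the tumors also turned with at least 10 counts (-0.013) and with only those groups (-0.022). Among fat pads with high Gpx5 the KPC value turned for Acacb (2.37), Scd1 (0.32), Mlxipl (0.10) and Me1 (0.39). There KPC IL6KO was 1 pad and no tumor 2, and the KPC IL6KO value turned for Fasn (0.46), Acly (0.040), Acaca (0.40), Acacb (1.71), Scd1 (0.78), Srebf1 (0.074), Mlxipl (0.52), Me1 (0.50) and Thrsp (1.02), and Acly turned between the tumors (-0.83). Pads with low Gpx5 held no KPC library, so KPC could not be compared there. With limma the tissue difference turned for Acaca with KPC (0.37) and for Acly (-0.054), Acacb (1.36) and Me1 (0.43) with KPC IL6KO.

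Leaving out libraries in turn changed the sign of uncalled values. Between the tumors in muscle the ranges were -0.65 to 0.58 for Fasn, -0.067 to 0.22 for Acly and -1.45 to 0.72 for Scd1. In fat with KPC they were -0.61 to 1.24 for Acacb, -3.28 to 0.018 for Scd1 and -0.62 to 0.046 for Mlxipl. In fat with KPC IL6KO they were -1.43 to 0.026 for Fasn, -0.9997 to 0.29 for Acaca, -0.60 to 1.08 for Acacb, -1.44 to 0.89 for Scd1, -0.26 to 0.49 for Mlxipl, -1.11 to 0.29 for Me1 and -1.98 to 0.024 for Thrsp. In fat between the tumors they were -0.056 to 1.03 for Acly, -0.43 to 0.60 for Acacb, -0.54 to 0.88 for Elovl6, -2.69 to 0.00030 for Scd1 and -0.36 to 0.081 for Srebf1. For the tissue difference they were -1.13 to 0.16 for Acaca with KPC, and with KPC IL6KO -0.23 to 0.83 for Acly, -1.03 to 0.61 for Acacb, -0.35 to 0.087 for Srebf1, -0.15 to 0.58 for Mlxipl, -1.27 to 0.074 for Me1 and -0.47 to 1.496 for Thrsp.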
